A study of Mus musculus with 56 samples.

Results

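*Cd79a*, *Cd79b*, *Ms4a1*, *Ighm*, *Ighd*, *Pax5*, *Ebf1*, *Blnk* and *Cd22* are genes by which B lymphocytes are usually recognised, and they were followed here in cultures of CD4+ T helper cells. They are 9 of the 47937 genes counted in each of the ODC and DOHH series, and they were chosen by their own readout, because they rise mainly in the ODC series. The comparison of KO with WT is therefore given for these 9 genes as a description without a test, in both series. The rule did not describe them all alike: *Ebf1* was above the WT range in no ODC subset, and *Ighd* was above the WT range in TH1 and Treg only. All 9 genes passed the filter on low counts in the ODC table and 8 passed it in the DOHH table, where *Ms4a1* did not.

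Naive splenic and lymph node CD4+ T cells of C57BL/6 mice, enriched by removing other cells, were activated with antibodies to CD3 and CD28 plus IL-2. They were polarised for 4 days to TH1 (IL-12), TH2 (IL-4), TH17 (IL-6, TGF-β and IL-1β) or Treg cells (TGF-β). Blocking antibodies were to IL-4 in TH1, to IFN-γ in TH2 and to both in TH17 and Treg. The polyadenylated RNA of the cells was sequenced in bulk. In the ODC series the mice carried loxP sites around exons of *Odc*, the gene of ornithine decarboxylase, which makes the polyamine putrescine, and in the DOHH series around exons of *Dohh*, whose enzyme completes the hypusine residue of eIF5A. Libraries labelled ODC_KO (*Odc*-/-) or DOHH_KO (*Dohh*-/-) came from mice with a *CD4*-cre transgene, which acts in T cells and is not directed at B cells, and libraries labelled ODC_WT or DOHH_WT from littermates without cre. Each ODC group had 4 libraries except ODC_KO TH2 with 3 (numbered 2 to 4), and each DOHH group had 3, giving 31 and 24 libraries. All mice of a series, the WT included, carried the floxed allele, and no source used here says that the libraries of a group came from separate animals, so p-values measure the spread between these libraries, which may be technical.

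The total count was 5905374 to 8012659 in ODC_KO, 6978044 to 9145214 in ODC_WT, 6572148 to 11199597 in DOHH_KO and 8328721 to 12576933 in DOHH_WT libraries. Levels are given as CPM, the count relative to the library size after TMM scaling. The targeted genes did not check the labels: *Odc1* averaged 610.3 CPM in ODC_KO TH1 and 509.9 in ODC_WT TH1, and *Dohh* 99.5 CPM in DOHH_KO TH1 and 36.8 in DOHH_WT TH1. Neither was called lower in any subset, and reads over the deleted exons were not counted apart from the rest of the gene. The groups are therefore named as labelled. The T cell identity was plain in every library: the summed level of 14 T cell genes (*Lck*, *Cd2*, *Cd4* and others) was 2948 to 7237 CPM, although *Cd4* itself averaged 36.1 CPM in DOHH_KO TH1 against 842 in DOHH_WT TH1. The ODC_KO libraries numbered 1 of TH1 and of Treg stood apart from their groups, the former for 7 and the latter for 3 of the 9 genes by a gap test (95% limit), and values with and without them are given after the genes.

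The 9 genes cover the B cell receptor and its supporting apparatus. The receptor is a membrane immunoglobulin, IgM with a heavy chain from *Ighm* or IgD with one from *Ighd*, that signals through the ITAM-bearing partners Igα (*Cd79a*) and Igβ (*Cd79b*). The adaptor BLNK (SLP-65) couples it to phospholipase Cγ2, CD22 is an inhibitory coreceptor that binds sialic acid, and *Ms4a1* encodes CD20. EBF1 and PAX5 are the transcription factors that specify the lineage and then hold it, and *Cd79a* is a classical target of both. *Ighm* differs from the others as a marker, since the unrearranged locus gives sterile transcripts from the Cμ region and these are known from T cells as well. In bulk libraries fewer cells of a type and less RNA per cell cannot be told apart.

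Promoter sequences were looked up because most of the 9 genes moved together in the ODC table. RefSeq entries of GRCm38.p6, each with 250 bases before and 50 after a start site, were found for 5 of the 9 genes (*Cd79a*, *Pax5*, *Ebf1*, *Blnk* and *Cd22*), and the upstream 250 bases were searched on both strands for 3 motifs. These were the octamer ATTTGCAT that Oct factors bind in immunoglobulin promoters, present in 1.60% of 32851 promoters, the 10-base palindrome of EBF1, in 0.779%, and the PU box AGAGGAA of PU.1 and Spi-B, in 8.55%. The motifs did not overlap each other in any of the windows. Stretches of 4 genes are shown to place the matches, and the capitals mark the motif. They are cut to bases outside annotated exons, except that of *Blnk*, which is 30 bases around the match because its whole window lies in an annotated exon.
Cd79a, chr7:24897247-24897380, plus strand: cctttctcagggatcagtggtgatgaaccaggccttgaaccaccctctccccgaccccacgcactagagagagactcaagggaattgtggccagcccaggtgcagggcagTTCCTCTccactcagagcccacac
Cd22, chr7:30879029-30879176, minus strand: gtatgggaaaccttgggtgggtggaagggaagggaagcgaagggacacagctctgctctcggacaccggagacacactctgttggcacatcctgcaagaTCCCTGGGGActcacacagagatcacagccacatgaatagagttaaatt
Blnk, chr19:40994333-40994362, minus strand: tactggaagggATTTGCATgcccaataagg
Ebf1, chr11:44619978-44620227, plus strand: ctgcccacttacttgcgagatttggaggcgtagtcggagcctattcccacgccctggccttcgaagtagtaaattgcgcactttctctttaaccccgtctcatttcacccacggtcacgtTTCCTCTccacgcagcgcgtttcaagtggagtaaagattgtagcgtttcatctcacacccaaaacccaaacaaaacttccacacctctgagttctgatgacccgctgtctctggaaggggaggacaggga
*Cd79a* held a PU box on the reverse strand (TTCCTCT) 140 to 134 bases before the start, *Cd22* an EBF palindrome 49 to 40 bases before it, *Blnk* an octamer 130 to 123 bases before it and the downstream start of *Ebf1* a reverse PU box 130 to 124 bases before it. None of the 3 motifs was in the window of *Pax5* or of the upstream start of *Ebf1*, which says only that these letters were not there. For *Pax5* and the downstream start of *Ebf1*, the bases after the start were not found in an annotated transcript of the gene. Those starts are therefore less certain.

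The members' levels set the scale. Per kb of exon, *Ighm* (chr12:113418558-113422730, minus strand) was the most abundant of the 9 in every one of the 16 groups: its mean was 260.4 CPM per kb in ODC_KO Treg and 340.4 in DOHH_KO Treg, and its lowest mean was 8.5 in DOHH_KO TH1. In ODC_KO TH2 the order of means was *Ighm* 216, *Cd79b* 44.2, *Cd79a* 41.8, *Cd22* 10.7, *Pax5* 6.08, *Blnk* 5.34, *Ms4a1* 3.85, *Ebf1* 2.46 and *Ighd* 0.728 CPM per kb. *Cd79b* and *Cd79a* were within each other's spread there.

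**Figure D1:**
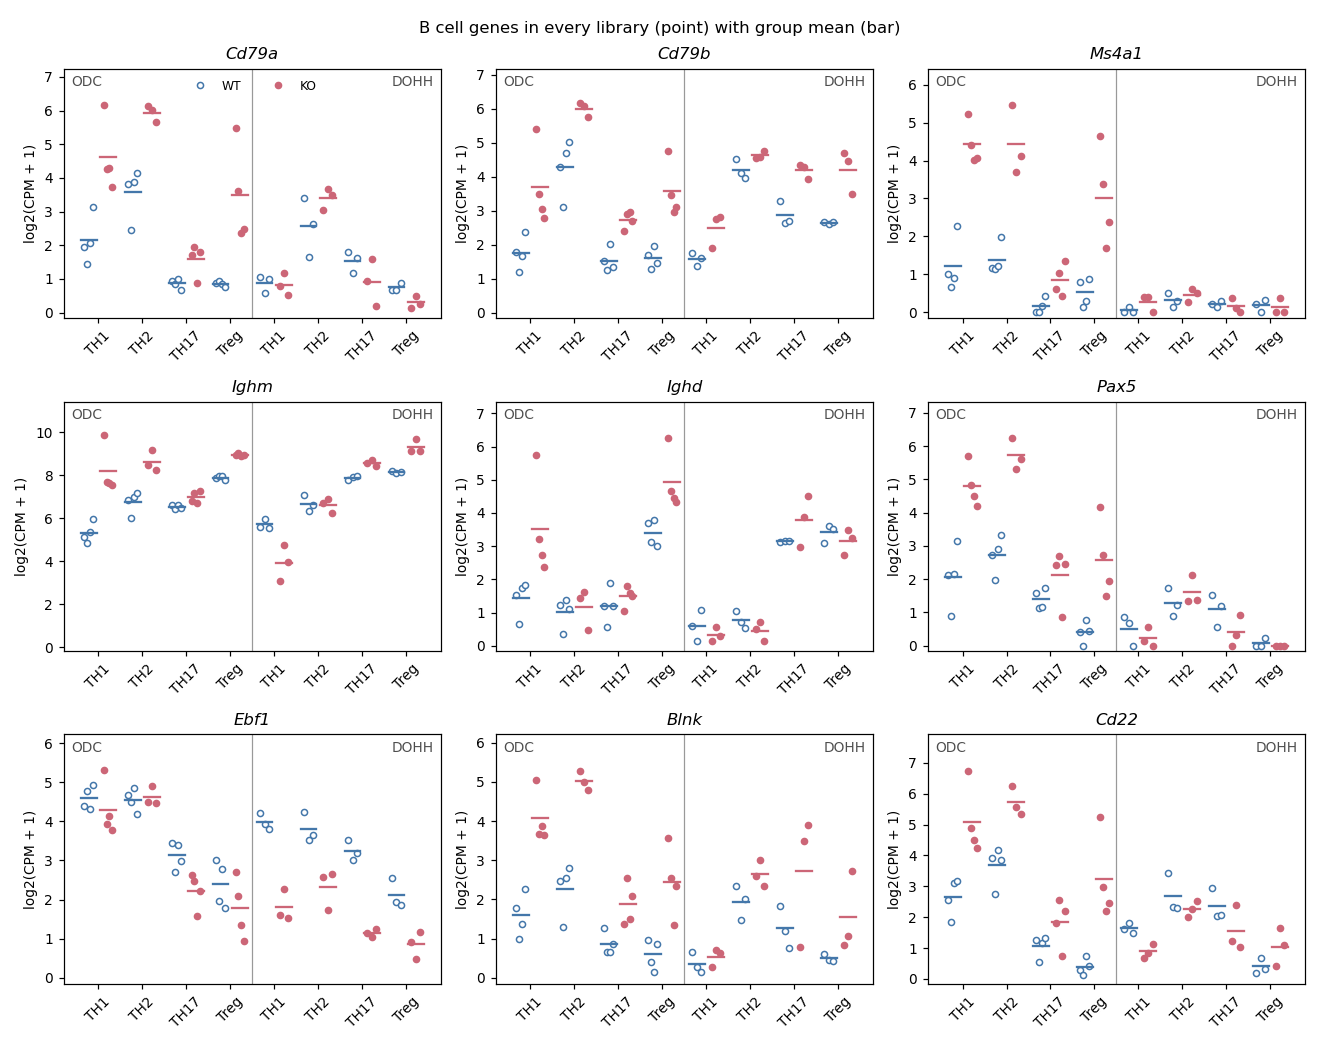
Level of each of the 9 genes in every library, as log2(CPM + 1), by subset, with ODC libraries left of the vertical line and DOHH libraries right of it; open blue points are WT, filled red points are KO and bars are the means of the plotted values. The KO and WT points of *Ebf1* overlap in TH1 and TH2 of the ODC table, and *Ms4a1* lies near 0 in all DOHH libraries.

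The immunoglobulin partners were followed first. *Cd79a* (chr7:24897381-24902197, plus strand) was at 71.1, 18.4, 18.9 and 12.3 CPM in ODC_KO TH1 and 2.89, 1.71, 3.19 and 7.85 CPM in ODC_WT TH1. It was at 69.7, 63.7 and 49.5 CPM in ODC_KO TH2 against 13.2, 4.53, 13.6 and 16.9 in ODC_WT TH2. In Treg it was at 44.1, 11.2, 4.14 and 4.56 CPM in ODC_KO against 0.847, 0.930, 0.807 and 0.699 in ODC_WT. All KO libraries lay above all WT libraries in these 3 subsets, with fitted log2 fold changes of 2.94 ± 0.63, 2.34 ± 0.59 and 4.25 ± 0.77 (KO minus WT, ± SE), whereas in TH17 the groups overlapped at 0.832 to 2.89 CPM in ODC_KO and 0.581 to 1.02 in ODC_WT.

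*Cd79b* (chr11:106311341-106314762, minus strand) lay above the WT range in all 4 ODC subsets. It was at 41.2, 10.3, 7.32 and 5.88 CPM in ODC_KO TH1 and 2.46, 1.28, 2.18 and 4.15 in ODC_WT TH1, and in TH2 at 70.6, 66.1 and 52.8 against 18.5, 7.6, 25.1 and 31.3. In TH17 its 4.25, 6.44, 6.82 and 5.47 CPM in ODC_KO also did not overlap the 1.86, 1.4, 3.05 and 1.51 CPM in ODC_WT. The log2 fold changes were 2.67 ± 0.57 in TH1, 1.62 ± 0.49 in TH2, 1.54 ± 0.61 in TH17 and 2.60 ± 0.57 in Treg. In the DOHH table *Cd79b* was higher in KO where *Cd79a* was not: it was at 24.7, 20.9 and 10.2 CPM in DOHH_KO Treg and 5.34, 5.11 and 5.28 in DOHH_WT Treg, where *Cd79a* stood at 0.110, 0.404 and 0.206 and 0.602, 0.608 and 0.852 CPM. In DOHH TH17 *Cd79b* was at 19.3, 18.4 and 14.2 CPM in KO and 8.72, 5.17 and 5.43 in WT, with *Cd79a* at 0.913, 2.01 and 0.151 and 2.5, 1.27 and 2.08.

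*Ighm*, the μ heavy chain, was the member with the most reads and the one with the strongest signal in WT cells. It was at 926, 203, 199 and 183 CPM in ODC_KO TH1 and 33.7, 27.9, 40.2 and 60.4 in ODC_WT TH1, a log2 fold change of 3.22 ± 0.40. In TH2 it was at 359, 566 and 297 CPM in ODC_KO and 116, 64.3, 127 and 144 in ODC_WT. In Treg the WT libraries already held 232, 247, 245 and 217 CPM and the KO libraries 482, 522, 474 and 486 CPM. These Treg values were tight within each group and apart between the groups, with a mean ratio of 2.09. The DOHH subsets went opposite ways: *Ighm* was at 7.46, 26.2 and 14.4 CPM in DOHH_KO TH1 below 47.7, 62.1 and 45.6 in DOHH_WT TH1 (log2 fold change -1.71 ± 0.30), and at 549, 826 and 551 CPM in DOHH_KO Treg above 288, 275 and 280.0 in DOHH_WT Treg (1.19 ± 0.28).

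The proportion of *Ighm* to *Cd79a* reads differed between subsets. A library of ODC_KO TH1 held 10.6 to 14.9 *Ighm* reads per *Cd79a* read and one of ODC_WT TH1 7.7 to 16.3, so the proportion overlapped between KO and WT while both levels differed. In TH2 the proportion was 5.15 to 8.88 in ODC_KO and 8.52 to 14.2 in ODC_WT, which overlap only through the KO library at 8.88. TH17 held 48.1 to 124 in ODC_KO and 95.4 to 154 in ODC_WT. ODC_WT Treg held 266 to 309.7 *Ighm* reads per *Cd79a* read and ODC_KO Treg 10.9 to 114, the lowest being replicate 1, which lay within the TH1 range. The *Cd79a* counts behind the Treg WT values were 8, 9, 7 and 6 reads, so those proportions are imprecise.

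*Ighd* (chr12:113406604-113416324, minus strand), whose δ exons are joined to the same variable region by alternative splicing in naive B cells, followed TH1 and Treg but not TH2. It was at 53.2, 8.33, 5.63 and 4.2 CPM in ODC_KO TH1 against 1.88, 0.569, 2.32 and 2.52 in ODC_WT TH1. In Treg it was at 76, 24.3, 21 and 19 CPM in ODC_KO and 11.9, 7.65, 12.8 and 6.99 in ODC_WT. In TH2, where *Ighm* and *Cd79a* were clearly apart, *Ighd* stayed at 1.72, 2.04 and 0.388 CPM in ODC_KO and 1.35, 0.267, 1.6 and 1.17 in ODC_WT, which overlap. The DOHH groups overlapped for *Ighd* in all 4 subsets, with 6.9, 13.7 and 22.1 CPM in DOHH_KO TH17 against 7.67, 7.9 and 7.97 in DOHH_WT TH17.

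The coreceptor and surface genes moved with *Cd79a* in the ODC table. *Cd22* (chr7:30865402-30880342, minus strand) was at 106, 28.7, 21.7 and 18.1 CPM in ODC_KO TH1 and 4.91, 2.56, 7.69 and 7.99 in ODC_WT TH1. In TH2 it was at 75.1, 46.6 and 39.7 CPM against 14.2, 5.74, 17.1 and 13.4. In TH17 the groups overlapped, at 2.52, 4.86, 0.666 and 3.64 CPM in ODC_KO and 1.39, 0.468, 1.24 and 1.51 in ODC_WT. In ODC_WT Treg it had 2, 1, 6 and 3 reads and in ODC_KO Treg 279, 57, 28 and 35 reads, or 36.9, 6.87, 3.62 and 4.56 CPM. In DOHH TH1 the order was inverted, with 0.613, 0.789 and 1.21 CPM in KO below 2.07, 2.49 and 1.79 in WT. In DOHH Treg it was higher in KO on average, at 0.331, 2.12 and 1.13 CPM against 0.151, 0.608 and 0.256, a log2 fold change of 1.90 ± 0.72 with overlapping libraries. An antisense gene overlaps 9.5% of the exon length of *Cd22* and antisense genes overlap 8.6% of that of *Pax5*; whether counting used strand is not given in the sources used here.

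*Ms4a1* (chr19:11249675-11266241, minus strand) had few reads outside the ODC libraries. It was at 36.2, 20.1, 15.2 and 15.8 CPM in ODC_KO TH1 and 1.01, 0.569, 0.871 and 3.85 in ODC_WT TH1, and in TH2 at 43.2, 12 and 16.3 against 1.22, 1.2, 1.34 and 2.92. In Treg it was at 24.2, 9.4, 2.2 and 4.17 CPM in ODC_KO and 0.741, 0.103, 0.230 and 0.816 in ODC_WT. The log2 fold changes were 3.79 ± 0.64, 3.84 ± 0.65 and 4.37 ± 0.75 in these subsets. In TH17 it had 4, 8, 2 and 12 reads in ODC_KO and 0, 0, 1 and 3 in ODC_WT. No DOHH library had more than 5 reads of *Ms4a1*, KO or WT, and its highest level there was 0.530 CPM, below every ODC_KO library of TH1, TH2 and Treg.

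*Blnk* (chr19:40928927-40994535, minus strand), the adaptor, was at 32.3, 11.8, 13.8 and 11.6 CPM in ODC_KO TH1 and 2.46, 0.996, 1.6 and 3.85 in ODC_WT TH1. In TH2 it was at 38.2, 31.2 and 26.6 CPM against 4.53, 1.47, 4.81 and 5.98. In TH17 it was at 1.59, 4.86, 1.83 and 3.25 CPM against 1.39, 0.585, 0.565 and 0.813, also without overlap. In the DOHH table the KO libraries lay above the WT libraries in TH2, at 5.09, 7.1 and 4.09 against 4.03, 1.8 and 3.03 CPM, and in Treg, at 0.773, 1.11 and 5.67 against 0.527, 0.365 and 0.341. In DOHH TH17 it was at 0.710, 10.3 and 13.9 CPM in KO and 2.58, 1.27 and 0.693 in WT, which overlap through the KO library numbered 1.

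The 2 lineage transcription factors parted. *Pax5* (chr4:44524757-44710487, minus strand) was at 50.7, 27.4, 21.7 and 17.2 CPM in ODC_KO TH1 and 3.32, 0.853, 3.48 and 7.85 in ODC_WT TH1. In TH2 it was at 74.6, 38.9 and 47.9 CPM against 5.63, 2.93, 6.55 and 9.04, and in Treg at 17, 5.66, 1.81 and 2.87 against 0.318, 0, 0.691 and 0.350. The log2 fold changes were 2.91 ± 0.56, 3.16 ± 0.56 and 4.30 ± 0.82. In TH17 the groups overlapped, at 4.39, 5.52, 0.832 and 4.42 CPM in ODC_KO and 1.97, 1.17, 1.24 and 2.32 in ODC_WT (1.20 ± 0.67). In DOHH libraries *Pax5* was at or under 3.39 CPM, and all 3 DOHH_KO Treg libraries had 0 reads, which allows up to 0.315 CPM (3 reads in a library, counting error only).

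*Ebf1* (chr11:44617317-45008091, plus strand) was present in WT cultures and did not rise. It was at 19.9, 26.2, 18.9 and 29.6 CPM in ODC_WT TH1 and 38.8, 14.3, 16.5 and 12.7 in ODC_KO TH1, and in TH2 at 24.6, 21.5, 27.9 and 17.2 in ODC_WT and 21.5, 29.2 and 21.3 in ODC_KO. In ODC_KO TH17 its 5.18, 4.6, 2.0 and 3.64 CPM lay below the 9.86, 5.5, 9.61 and 6.85 CPM of ODC_WT TH17. Every DOHH_KO library lay below every DOHH_WT library of its subset: 2.04, 3.79 and 1.88 against 17.6, 14.3 and 13 CPM in TH1, 4.99, 2.33 and 5.25 against 18, 10.5 and 11.5 in TH2 and 1.22, 1.04 and 1.36 against 10.4, 7.02 and 8.08 in TH17, with 0.884, 0.404 and 1.24 against 4.89, 2.8 and 2.64 in Treg. The log2 fold changes in the DOHH table were -2.57 ± 0.37, -1.67 ± 0.35, -2.82 ± 0.40 and -2.03 ± 0.42. In ODC_WT TH1 *Ebf1* at 23.6 CPM exceeded *Pax5* at 3.88 CPM; per kb of exon the means were 2.42 and 0.438.

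The median log2 fold change of the 9 members in the ODC table was 2.94 in TH1, 2.09 in TH2, 1.35 in TH17 and 3.23 in Treg. Over the 8 members tested in the DOHH table it was -1.21, 0.17, -0.07 and 0.47. The members were selected on this contrast, so the ODC values describe the selection, and no call of KO against WT is given for them.

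**Figure D2:**
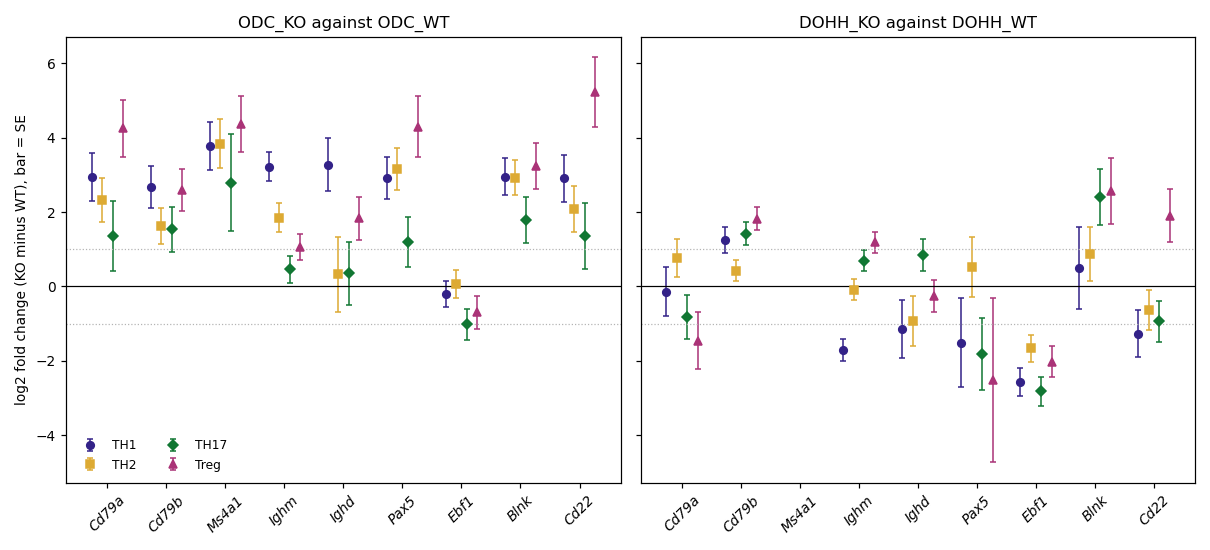
Fitted log2 fold change of KO minus WT for each of the 9 genes in TH1, TH2, TH17 and Treg, with SE as bars, in the ODC table (left) and the DOHH table (right); dotted lines mark 2-fold. In the ODC table the 8 genes other than *Ebf1* are above 0 in every subset and *Ebf1* runs from -1.02 to 0.07; *Ms4a1* was not tested in the DOHH table and has no point there.

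Library 1 of ODC_KO stood apart in TH1 and in Treg, and the folds of those subsets are given again without it. In TH1 the remaining 3 KO libraries averaged 16.5 ± 3.65 CPM of *Cd79a* (SD), against 3.91 ± 2.7 in the 4 WT libraries and 30.2 ± 27.5 in all 4 KO libraries. *Ighm* averaged 195 ± 10.7 CPM without it and 378 ± 366 with it, and the log2 fold change went from 3.22 ± 0.40 to 2.25 ± 0.23. *Ighd* went from 17.8 ± 23.6 to 6.05 ± 2.1 CPM. In Treg, *Cd22* went from 13 ± 16 to 5.02 ± 1.67 CPM and *Cd79a* from 16 ± 19 to 6.64 ± 3.96. The log2 fold changes in TH1 went from 2.94 to 2.06 for *Cd79a*, 2.67 to 1.63 for *Cd79b*, 3.79 to 3.42 for *Ms4a1*, 3.28 to 1.72 for *Ighd*, 2.91 to 2.50 for *Pax5*, 2.96 to 2.46 for *Blnk* and 2.91 to 1.96 for *Cd22*, and that of *Ebf1* from -0.21 to -0.72. In Treg they went from 4.25 to 2.99 for *Cd79a*, 2.60 to 1.96 for *Cd79b*, 4.37 to 3.45 for *Ms4a1*, 1.06 to 1.07 for *Ighm*, 1.83 to 1.13 for *Ighd*, 4.30 to 3.33 for *Pax5*, 3.23 to 2.63 for *Blnk* and 5.22 to 3.86 for *Cd22*, and that of *Ebf1* from -0.70 to -1.24. The folds of the genes other than *Ebf1* stayed above 0 without these libraries. Library 1 of ODC_KO TH17 was not set apart, with *Cd79a* at 2.26 CPM.

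The polarised subsets of 1 genotype were compared next. The rule did not use differences between subsets, but it chose genes with high ODC_KO values. The tests among ODC_KO subsets are therefore run on values that the rule used. All 9 members differed among the 4 ODC_WT subsets (F test, edgeR, adjusted over all genes tested), but so did 71.1% of all genes, and all 9 differed among the ODC_KO subsets, beside 53.9%. Of the 8 members tested in the DOHH series all 8 differed among WT subsets, beside 40.1%, and all 8 among KO subsets, beside 39.6%. Leaving out 1 library gave 7 to 8 in each DOHH genotype. A filter at a mean count of at least 50 left only *Cd79b*, *Ighm*, *Ighd* and *Ebf1* to test in the DOHH series, and these 4 differed in each genotype. The subset with the highest mean split the members. *Cd79a*, *Cd79b*, *Pax5*, *Blnk*, *Cd22* and *Ms4a1* were highest on average in TH2 of ODC_WT, *Ighm* and *Ighd* in Treg and *Ebf1* in TH1.

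*Cd79a* averaged 12.1 ± 5.29 CPM in ODC_WT TH2, 3.91 ± 2.7 in TH1, 0.836 ± 0.189 in TH17 and 0.821 ± 0.0959 in Treg (SD, n = 4, edgeR adjusted p = 6.7e-05). Its TH2 and TH1 libraries overlapped, as did TH17 and Treg, and TH1 lay above TH17. *Cd79b* averaged 20.6 ± 10.2 CPM in TH2, apart from all other subsets, which overlapped at means of 2.51, 1.96 and 2.07 CPM in TH1, TH17 and Treg (edgeR adjusted p = 1.1e-06). The same top subset was seen in DOHH_WT, where *Cd79b* averaged 17.6 ± 3.94 CPM in TH2 against 6.44 in TH17, 5.24 in Treg and 2.0 in TH1 (n = 3, edgeR adjusted p = 6.6e-07).

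*Ighm* averaged 235 ± 14.2 CPM in ODC_WT Treg, 113 ± 34.3 in TH2, 91.6 ± 5.93 in TH17 and 40.5 ± 14.2 in TH1 (edgeR adjusted p = 2.0e-05). Treg lay above every other library and TH1 below every other library, while TH2 and TH17 overlapped. In DOHH_WT the order was Treg at 281 ± 6.51, TH17 at 236 ± 13.4, TH2 at 104 ± 28.6 and TH1 at 51.8 ± 8.95 CPM with no overlap between neighbours (edgeR adjusted p = 2.1e-06). *Ighd* in ODC_WT was at 9.82 ± 2.93 CPM in Treg, apart from the other subsets, whose means were 1.82, 1.43 and 1.1 CPM in TH1, TH17 and TH2 (edgeR adjusted p = 4.7e-04). In DOHH_WT *Ighd* was high in Treg and TH17 alike, at 9.8 ± 2.0 and 7.85 ± 0.158 CPM, and low in TH2 and TH1 at 0.718 and 0.573 CPM (edgeR adjusted p = 7.9e-07).

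*Ebf1* averaged 23.6 ± 5.12 CPM in ODC_WT TH1 and 22.8 ± 4.57 in TH2, which overlapped, and 7.96 ± 2.13 in TH17 and 4.58 ± 2.26 in Treg, which overlapped with each other but not with the former pair (edgeR adjusted p = 4.4e-06). DOHH_WT gave the same order, at 15, 13.3, 8.51 and 3.44 CPM (edgeR adjusted p = 2.9e-04). Among the ODC_KO subsets, described without a test, *Pax5* averaged 53.8 ± 18.6 CPM in TH2, 29.3 ± 14.9 in TH1, 6.85 ± 6.99 in Treg and 3.79 ± 2.04 in TH17. TH2 and TH1 overlapped, as did Treg and TH17, and the highest Treg library (17 CPM) lay just under the lowest TH1 library (17.2 CPM). That Treg library was library 1, without which the Treg mean of *Pax5* was 3.45 ± 1.99 CPM, below the TH17 mean, so the order of Treg and TH17 turned. In the order TH2, TH1, Treg and TH17 the ODC_KO means were 32, 17.4, 5.31 and 2.89 CPM for *Blnk* and 23.8, 21.8, 9.99 and 0.869 for *Ms4a1*. Without library 1 the Treg means were 3.47 ± 1.71 and 5.26 ± 3.72 CPM. In ODC_WT, *Ms4a1* differed among subsets at an edgeR adjusted p of 0.0184 on 0 to 26 reads a library. This call was lost without the filter on low counts.

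Within groups the members varied together in the ODC table. With the 8 group means removed, which removes the contrast that chose the genes, the 36 pairs had a median Pearson r of 0.69 over 31 libraries (from 0.37 for *Ms4a1* with *Ighm* to 0.91 for *Cd79b* with *Ighd*). *Pax5* with *Cd22* had r = 0.90 and *Cd79a* with *Cd22* r = 0.87. *Ebf1*, which did not rise in KO, still varied with *Cd79a* (r = 0.71) and *Cd22* (r = 0.69) over these libraries. The ODC_KO libraries numbered 1 of TH1 and Treg were the highest of their groups for all of these genes. The *Ebf1* pairs are not given without them. With the ODC_KO libraries numbered 1 of TH1 and Treg removed the median r was 0.56. In the DOHH table the median r of 28 pairs was 0.20 over 24 libraries (from -0.15 to 0.58). The values of 1 library share their depth and scaling, the points are not independent of the libraries that stand apart, and low counts weaken a correlation, so these values are a description.

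**Figure D3:**
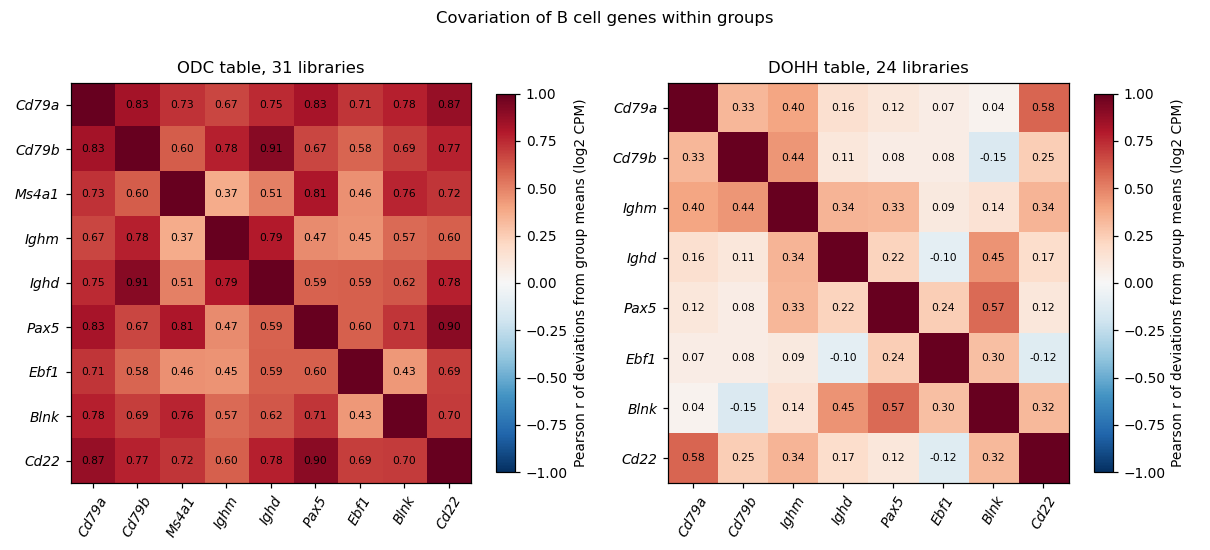
Pearson r between members of the deviations of log2 CPM from the group means, in the ODC table (left, 9 genes) and the DOHH table (right, 8 genes); colour runs from blue (-1) to red (1). The ODC pairs run from 0.37 to 0.91, whereas the DOHH pairs run from -0.15 to 0.58.

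The genes most like the members over the ODC libraries included other B cell genes. Against the mean z score of the 9 members over 31 libraries, Pearson r was 0.95 for *Ffar1*, and the genes after it were *Ly86* (MD-1, the partner of RP105) at 0.93, the λ constant gene *Iglc2* at 0.92, the κ variable genes *Igkv8-28* at 0.91 and *Igkv19-93* at 0.91, *Blk* (a Src family kinase) at 0.90, *Bcl11a* at 0.90, *Dennd5b* at 0.90 and *Iglc3* at 0.90. This ranking keeps the difference between KO and WT that chose the members, so genes higher in ODC_KO rank high in it. With group means removed, which takes that difference out, the genes named by the same ranking included *Bank1* (a scaffold of receptor signalling) at 0.89, *Pou2af1* (the Oct coactivator OBF-1) at 0.88, *Mzb1* at 0.87, *Blk* at 0.86, *Mef2c* at 0.83, *Ffar1* at 0.83, *Tnfrsf13c* (the BAFF receptor) at 0.82, *Ly86* at 0.81 and *Iglc2* at 0.81.

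Beyond the members, 63 other B cell genes were followed in 7 lists. Of the 57 tested in the ODC table, 34 rose in ODC_KO TH1 (adjusted p under 0.05 and over 2-fold in the edgeR quasi-likelihood fit across all genes), where 10.2% of all tested genes rose, 32 in TH2 (all genes 11.5%), 23 in TH17 (8.35%) and 33 in Treg (13.9%). In the same subsets 4 fell in TH1 (all genes 11.3%), 6 in TH2 (13.6%), 4 in TH17 (7.21%) and 4 in Treg (10.1%). Their median log2 fold changes were 2.71, 1.82, 1.52 and 2.23, where all genes had medians of 0.02, 0.00, 0.05 and 0.07. Of the 50 tested in the DOHH table, 9 rose in TH1 (all genes 14.8%), 15 in TH2 (14.3%), 18 in TH17 (17.3%) and 15 in Treg (17.5%), and 11 fell in TH1 (all genes 14.2%), 8 in TH2 (11.6%), 12 in TH17 (14.1%) and 12 in Treg (15.2%). The 9 higher in DOHH TH1 became 15 with DESeq2 and 4 with a fit of only the groups compared. Leaving out each library gave 6 to 12 higher and 7 to 12 lower there. The lists were drawn up with earlier results of these data known.

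In ODC_KO, of 10 receptor and coreceptor genes 7, 5, 3 and 9 rose in TH1, TH2, TH17 and Treg. *Cr2* (CD21), counted among them in TH1 and Treg, was low and uneven: it was at 4.38, 0.397, 2.53 and 0.280 CPM in ODC_KO TH1 against 0.144, 0.142, 0.581 and 0.444 in ODC_WT TH1, where the groups overlap. In Treg it was at 2.91, 1.33, 0 and 0.130 CPM in ODC_KO, of which libraries 1 and 2 carried nearly all, against 0, 0.103, 0 and 0.117 in ODC_WT. *Siglecg*, an inhibitory lectin, rose in all 4 subsets, and in TH1 it was at 6.02 to 60.7 (median 8.86) CPM in KO against 1.71 to 5.33 (median 2.46) in WT. Of 8 signalling genes 6, 6, 4 and 6 rose in the 4 subsets, and of 9 transcription factors 4, 4, 3 and 4. In the DOHH subsets 0, 1, 2 and 2 of 8 tested receptor and coreceptor genes, 3, 4, 5 and 5 of 8 signalling genes and 0, 1, 2 and 2 of 8 tested transcription factors rose, and 1, 1, 2 and 2 of the first, 0, 0, 1 and 0 of the second and 2, 2, 3 and 3 of the third list fell. In the ODC subsets 1, 2, 0 and 0 of these receptor, 1, 0, 1 and 0 of the signalling and 1, 0, 1 and 1 of the transcription factor genes fell. *Irf8* of the last list is listed at 0 in every DOHH library. *Pou2af1* rose from 49.7 ± 20.8 to 321 ± 48.8 CPM in TH2 (edgeR adjusted p = 1.9e-05) and fell in DOHH_KO TH17 (log2 fold change -3.01 ± 0.39). *Spi1*, which encodes PU.1 and is shared with myeloid cells, and *Bcl11a* rose in all 4 ODC subsets, by 3.55 ± 0.62 and 3.35 ± 0.70 on the log2 scale in Treg. *Cd81*, a tetraspanin that T cells also express, fell in ODC_KO TH1 and TH2 and in all 4 DOHH_KO subsets, at -4.14 ± 0.39 in DOHH TH1; it was named after its values were seen.

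**Figure D4:**
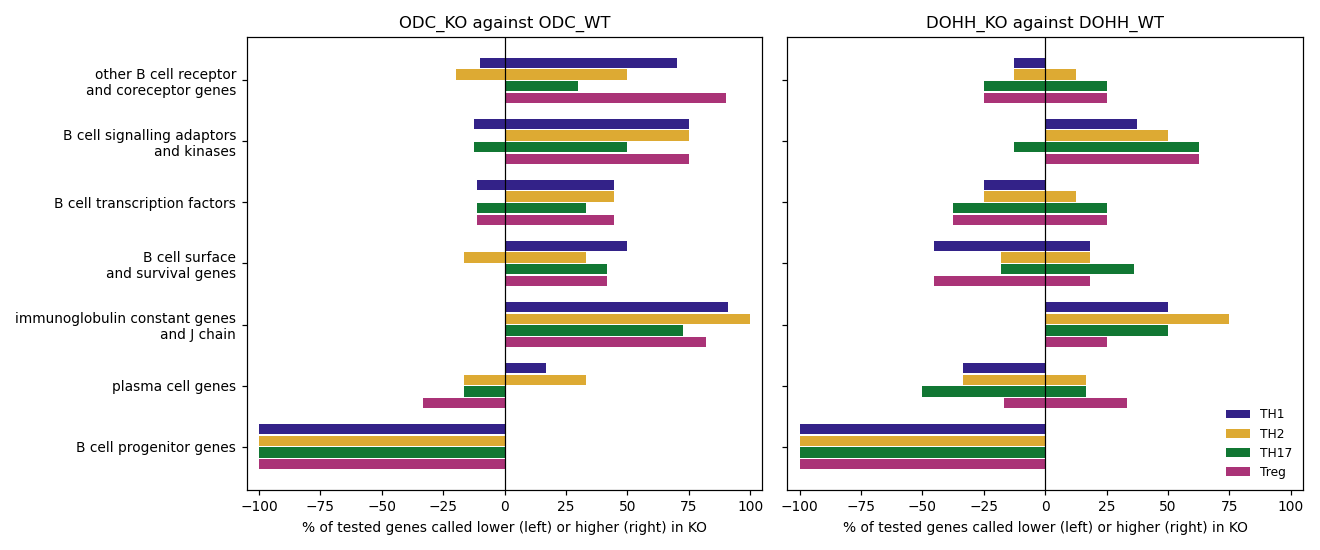
Share of the tested genes of each B cell list that were called higher (right of 0) or lower (left of 0) in KO, in percent, by subset, for the ODC table (left) and the DOHH table (right). In the ODC table the immunoglobulin constant genes have the highest share called higher in TH1, TH2 and TH17, and the receptor and coreceptor genes in Treg; the progenitor list has 1 tested gene, *Dntt*, which was lower in all 8 comparisons.

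Of 12 surface and survival genes 6, 4, 5 and 5 rose in the ODC subsets, and of 6 tested plasma cell genes 1, 2, 0 and 0; in the DOHH subsets 2, 2, 4 and 2 of 11 and 0, 1, 1 and 2 of 6 rose. Those that fell were 0, 2, 0 and 0 surface and survival and 0, 1, 1 and 2 plasma cell genes in the ODC subsets and 5, 2, 2 and 5 and 2, 2, 3 and 1 in the DOHH subsets. The B cell progenitor list had 1 tested gene, *Dntt*, whose product adds bases at V(D)J joints and which naive T cells can still carry. It was named after its values were seen and fell in all 4 ODC_KO subsets, and in all 4 DOHH_KO subsets. In TH1 it was at 0.529 to 30.4 (median 1.26) CPM in ODC_KO against 28.3 to 130.3 (median 104) in ODC_WT (log2 fold change -3.49 ± 0.79), and the highest KO library lay above the lowest WT library. *Rag1*, *Rag2*, *Vpreb1*, *Vpreb2* and *Igll1* did not pass the filter in either table.

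The immunoglobulin constant genes and the J chain had, in the ODC table, the largest share of higher calls of the 7 lists in TH1, TH2 and TH17: 10, 11, 8 and 9 of 11 rose in ODC_KO TH1, TH2, TH17 and Treg and none fell, and in DOHH_KO 4, 6, 4 and 2 of 8 rose. *Igkc*, the κ light chain, was at 313, 84.8, 98.5 and 100.5 CPM in ODC_KO TH1, with library 1 highest, against 4.48, 6.54, 7.69 and 22.9 in ODC_WT TH1 (log2 fold change 3.84 ± 0.57, edgeR adjusted p = 8.9e-06), and averaged 399 ± 86.5 against 31 ± 15.5 in TH2 (3.69 ± 0.55). *Igkc* is listed at 0 in every DOHH library although light-chain variable genes have reads there, so no value is given for it in that table. *Igkc*, *Irf8* and *Itgam* have reads in the ODC table, and whether both tables were counted with the same settings is not given in the sources used here. *Jchain*, which joins secreted IgA and IgM, rose in all 4 ODC subsets, from 0, 0, 2 and 0 reads in ODC_WT TH2 to 23, 78 and 25 in ODC_KO TH2. *Iglc1* and *Iglc2* also rose in all 4, and *Iglc2* was at 6.88 to 29.1 (median 10.0) CPM in ODC_KO TH1 against 0.142 to 1.63 (median 0.217) in ODC_WT TH1. The λ constant genes are near-identical copies, so reads may be split between them.

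The switched heavy-chain constant genes differed between the polarising conditions. Naming *Ighg1*, *Ighe* and *Ighg2c* beside *Igha*, *Ighg2b* and *Ighg3* was decided after their values were seen. *Ighg1* averaged 471 ± 66.3 CPM in ODC_KO TH2 against 42 ± 20.7 in ODC_WT TH2 (log2 fold change 3.49 ± 0.37, edgeR adjusted p = 9.1e-08), and made up 87.7% of the reads of the 6 genes there, and 88% in ODC_WT TH2. *Ighe* was at 78.1, 34.4 and 44.7 CPM in ODC_KO TH2 against 5.39, 3.07, 3.47 and 8.6 in ODC_WT TH2 (3.35 ± 0.36), and its highest level in any other ODC group was 0.302 CPM. In ODC_KO TH1 the leading genes were *Ighg2b*, at 38 ± 9.25 CPM in ODC_KO against 2.09 ± 2.16 in ODC_WT (4.18 ± 0.57), and *Ighg2c*, at 35.4 ± 8.78 against 2.28 ± 2.86 (3.96 ± 0.57), with 35.1% and 32.6% of the reads of the 6 genes; in ODC_WT TH1 these shares were 25.6% and 27.8%, beside 26.5% for *Ighg1*. *Ighg3* rose in all 4 ODC subsets and was at 25.5, 8.86, 7.46 and 7.98 CPM in ODC_KO TH1.

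*Igha* led in TH17 and Treg. It was at 146, 212, 227 and 185 CPM in ODC_KO Treg against 5.29, 5.89, 8.18 and 12.9 in ODC_WT Treg (log2 fold change 4.58 ± 0.41, edgeR adjusted p = 2.4e-09) and made up 94.3% of the reads of the 6 genes, beside 90.9% in ODC_WT Treg. In TH17 it averaged 65.2 ± 25.9 CPM in ODC_KO against 6.5 ± 2.08 in ODC_WT (3.32 ± 0.41). The leading shares differed between KO and WT far less than the levels did in ODC TH2 and Treg, without a test of the shares. In DOHH TH2 the shares lay further apart. The share of *Ighg1* was 56.9% in DOHH_KO TH2 and 83.5% in DOHH_WT TH2, and that of *Igha* 16.6% and 0.746%. The *Igha* levels there were 6.72, 34.5 and 3.36 CPM in KO, with 1 library high, and 0.0823, 0.106 and 0.448 in WT. *Igha* also rose in all 4 DOHH subsets: it averaged 318 ± 65.3 CPM in DOHH_KO Treg against 26.8 ± 3.88 in DOHH_WT Treg (3.56 ± 0.70) and 221 ± 66.8 against 10.8 ± 2.16 in TH17 (4.34 ± 0.74). In those DOHH_KO Treg libraries *Cd79a* had 1, 4 and 2 reads. As background, IL-4 directs switching to IgG1 and IgE, TGF-β to IgA and IFN-γ to IgG2c in mouse B cells. The counts do not separate switched from germline transcripts of a constant gene.

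**Figure D5:**
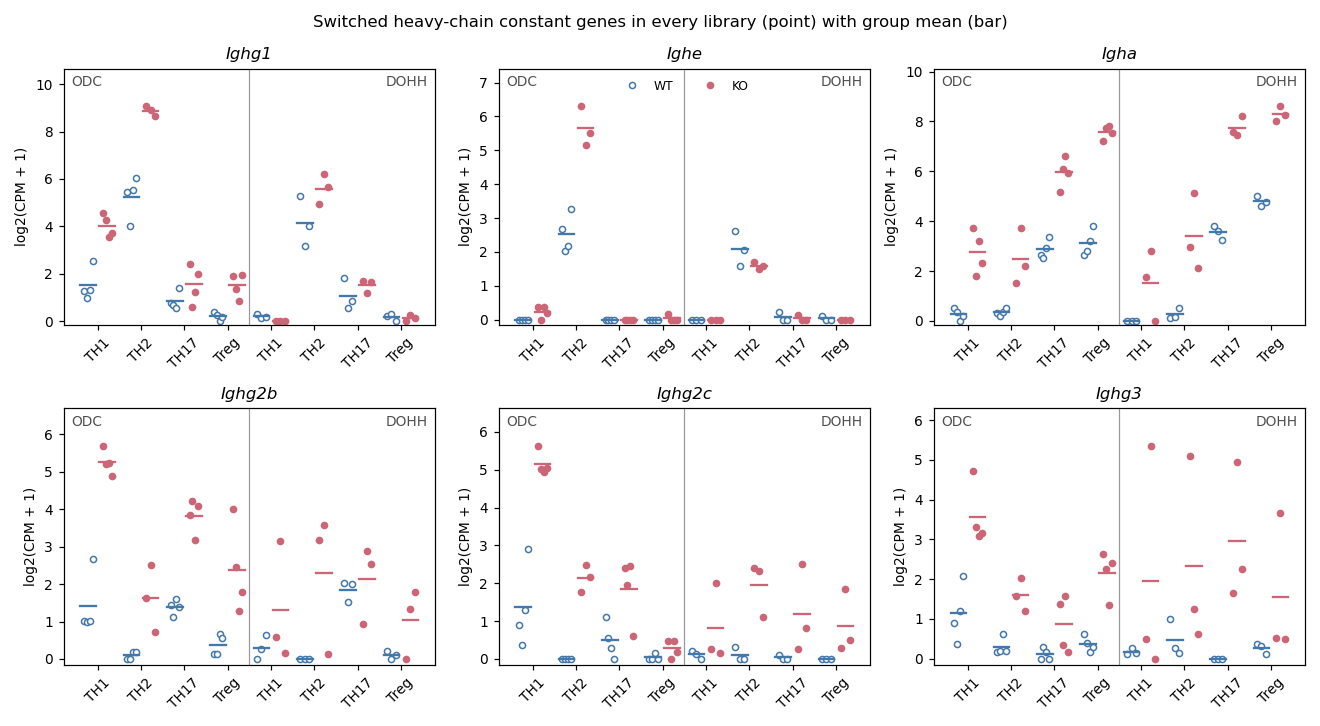
Level of 6 switched heavy-chain constant genes in every library, as log2(CPM + 1), with ODC libraries left of the vertical line and DOHH libraries right of it; open blue points are WT, filled red points are KO and bars are the means of the plotted values. *Ighg1* and *Ighe* are highest in TH2 of both tables, *Ighg2b* and *Ighg2c* in TH1 of the ODC table and *Igha* in TH17 and Treg of both tables.

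Variable genes gave a readout of how many different immunoglobulin segments had reads; they were added after the values were seen and get no test. Of 185 heavy-chain variable genes, 57 to 91 had at least 1 read in a library of ODC_KO TH1 and 9 to 27 in one of ODC_WT TH1. In TH2 the numbers were 81 to 86 and 27 to 55, in TH17 35 to 56 and 8 to 19 and in Treg 17 to 55 and 3 to 11. ODC_KO and ODC_WT did not overlap in any subset, TH17 included, where *Cd79a* did. Of 163 light-chain variable genes, 93 to 96 had reads in ODC_KO TH2 and 45 to 64 in ODC_WT TH2. In DOHH libraries the heavy-chain numbers overlapped in TH1, TH2 and TH17, at 37 to 52 in DOHH_KO TH2 and 13 to 52 in DOHH_WT TH2, and were 5 to 14 and 1 to 3 in Treg. In Treg of DOHH_KO, where *Ighm* stood at 642 CPM, all heavy-chain variable genes together had 14 to 66 reads a library, whereas in ODC_KO TH1 they had 166 to 813 reads beside 378 CPM of *Ighm*. The number detected grows with the number of reads.

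Markers of other cell types were counted too, in both tables. Of all tested genes 10.2%, 11.5%, 8.35% and 13.9% rose in ODC_KO TH1, TH2, TH17 and Treg, and 14.8%, 14.3%, 17.3% and 17.5% in DOHH_KO. In ODC_KO TH1, TH2, TH17 and Treg, 5, 3, 10 and 9 of 12 tested monocyte, macrophage and neutrophil genes rose, and in DOHH_KO 4, 10, 12 and 12 of 13; their summed level was 41.6 to 133 CPM in ODC_KO TH1 against 130.4 to 160.2 in ODC_WT TH1, 194 to 873 against 28.5 to 60.6 in ODC Treg, and 395 to 5186 against 32 to 38.1 in DOHH Treg. *Lyz2*, *S100a8* and *S100a9* averaged 1.94, 0.174 and 0.141 CPM in ODC_KO TH1. In DOHH_KO TH17 *Lyz2* was at 67 to 4211 (median 1205), *S100a8* at 180.4 to 4314 (median 1866) and *S100a9* at 299.9 to 5749 (median 2427) CPM, so these levels differed widely among the 3 libraries. Of 8 basophil and mast cell genes 7, 7, 8 and 7 rose in the ODC and 7, 7, 7 and 7 in the DOHH subsets, with *Cyp11a1* at 50.9, *Mcpt8* at 18.6 and *Cpa3* at 13.2 CPM in ODC_KO TH2 against 219, 2.0 and 0.383 in ODC_WT TH2. Of 8 CD8 T and NK cell genes 5, 5, 6 and 7 rose in the ODC subsets and, of 6 tested, 4, 4, 5 and 5 in the DOHH subsets. *Prf1* (perforin) was at 23.5 to 134 (median 33.3) CPM in ODC_KO Treg against 6.51 to 11.3 (median 8.84) in ODC_WT Treg. *Cd8a* and *Cd8b1* averaged 165 and 16.6 CPM there against 15.1 and 11.3.

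MHC class II genes, which B cells share with dendritic cells and macrophages, rose in number 5, 5, 5 and 5 of 9 in the ODC subsets and 1, 3, 6 and 6 of 9 in the DOHH subsets. The 1 of 9 in DOHH TH1 lay below the 14.8% of all tested genes that rose there. *Cd74*, the invariant chain, averaged 958 ± 159 CPM in ODC_KO TH2 against 110.1 ± 41.5 in ODC_WT TH2, with *H2-Ab1* at 251 against 282 and *H2-Aa* at 211 against 29.7 CPM. Of the dendritic cell genes 2, 0, 2 and 3 of 6 tested rose in the ODC and 1, 2, 4 and 5 of 7 in the DOHH subsets; their sum was 152 to 511 CPM in DOHH_KO TH17 against 60.5 to 72.1 in DOHH_WT TH17. In ODC_KO TH1 *Bst2*, *Itgax* and *Pacsin1* averaged 91.1, 2.38 and 6.65 CPM against 65.8, 0.400 and 8.93 in ODC_WT TH1. Of the erythroid genes 1, 0, 0 and 0 of 1 tested in the ODC and 2, 2, 4 and 2 of 4 in the DOHH subsets rose, with *Hbb-bt* at 1.14, *Klf1* at 0.277 and *Hbb-bs* at 0.207 CPM in ODC_KO TH1. In DOHH_KO TH17 *Hbb-bt* was at 7.51 to 25.8 (median 7.63) CPM and the erythroid sum was 9.64 to 67.2 CPM, against 0.693 to 1.27 in DOHH_WT TH17. Of 14 T cell identity genes none rose in the ODC subsets and 0, 4, 1 and 1 fell, and in the DOHH subsets none rose and 5, 5, 5 and 5 fell. Of all tested genes 11.3%, 13.6%, 7.21% and 10.1% fell in the ODC and 14.2%, 11.6%, 14.1% and 15.2% in the DOHH subsets. At most 2 genes of any of these other lists, T cell identity aside, fell in a subset. In Treg, where the members' sums were 516 to 722 CPM in ODC_KO and 231 to 269 in ODC_WT, the summed CD8 T and NK cell genes were at 225 to 437 and 32.2 to 61.5 CPM and the basophil and mast cell genes at 221 to 321 and 56.9 to 104. The MHC class II genes summed to 421 to 1228 CPM in ODC_KO Treg and 289.6 to 489 in ODC_WT Treg, and the dendritic cell genes to 126 to 172 and 69.5 to 87.7. Of these markers *Hba-a2* was listed at 0 in every ODC library. Of these markers *Itgam* was listed at 0 in every DOHH library. The part of these other cell types in the levels of the B cell genes was not tested.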

How the data were processed

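Polyadenylated RNA of polarised CD4+ T cells was sequenced from stranded libraries, and the values are whole-number counts of reads per gene as deposited by the authors, in 1 table per series. The submitters' processing notes name STAR, deepTools, featureCounts, DESeq2 and mm10; versions, annotation and strand setting are not given in the sources used here. Gene IDs were matched to mouse symbols for 47224 of 47937 genes, and unmatched genes held 0.0709% (ODC) and 0.0585% (DOHH) of counts. No column lacked a sample, and replicate 1 of ODC_KO TH2 was not analysed here. No replicate pair of a group was as alike as 1 library deposited again (smallest chi-square per degree of freedom 2.61 in ODC, 4.30 in DOHH).

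Each table was fitted with edgeR 4.0.16 in R 4.3.3 (TMM scaling, filterByExpr, quasi-likelihood tests on 8 group means; 13839 ODC and 13897 DOHH genes tested), with Benjamini-Hochberg adjustment over all genes and calls at an adjusted p under 0.05 and over 2-fold, the study's thresholds. Subsets of a genotype were compared by the F test of that fit, without a fold threshold. Correlations used log2 CPM with a prior count of 2. On simulated counts, changes were placed only in genes with a mean count above 50. For the ODC TH1 contrast (13280 genes) 92% of 2-fold and 99% of 4-fold changes were recovered, and for DOHH TH1 (13471 genes) 65% and 92%. These values do not cover genes with fewer reads, such as *Ms4a1* and *Pax5* in the DOHH series. The members and all gene lists were chosen with earlier results of these data known. Beside the members, genes were named by rule: the 10 most like the members, *Cr2*, *Igkc*, *Jchain* and *Pou2af1*, the 8 other B cell genes called in the most ODC comparisons, and of each other cell type up to 3 with the highest level and those defining it; 1 gene that the rule names is not reported here. Alternatives were RLE factors, DESeq2 1.42.0, other filters, only the groups compared, a replicate block, a call by adjusted p alone, unscaled totals, a prior count of 0.5 and leaving out each library. Leaving out replicate 1 of ODC_KO TH1 and of ODC_KO Treg together was chosen after seeing the data. Intervals and floors cover counting error only.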

Additional observations from a re-analysis of the deposited data

Results flagged for a closer look

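In groups of 4 libraries, the highest or lowest library was set against the rest by its gap over the group's range, and 12 of 63 groups of the 9 genes held a library beyond the 95% limit. The share of all genes with such a library is not given, so this count is a description. The ODC_KO TH1 library numbered 1 was far above the others for 7 genes. Its *Cd79a* level was 71.1 CPM, *Cd79b* 41.2 CPM and *Ighm* 926 CPM. For *Ighd* it was 53.2 CPM, for *Ebf1* 38.8 CPM, for *Blnk* 32.3 CPM and for *Cd22* 106 CPM. The ODC_KO Treg library numbered 1 was far above the others for 3 genes, at 26.2 CPM of *Cd79b*, 76 CPM of *Ighd* and 36.9 CPM of *Cd22*. In ODC_WT the library numbered 4 was far above the others for *Ms4a1*, at 3.85 CPM in TH1 and 2.92 CPM in TH2. The flags are not independent of each other, since the genes vary together from library to library.

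Some fold changes had opposite signs with no overlap between KO and WT libraries on either side. In each of these cases the difference was not tested. The genes were chosen for rising mainly in the ODC series, so the comparisons between the series here repeat that choice. *Cd79a* had a log2 fold change (KO minus WT, ± SE) of 4.25 ± 0.77 in ODC Treg and -1.46 ± 0.77 in DOHH Treg. The latter rests on 1, 4 and 2 reads in the DOHH_KO libraries. *Ighm* had 3.22 in ODC TH1 and -1.71 in DOHH TH1, and within the DOHH table its TH1 value went against 0.69 in TH17 and 1.19 in Treg. *Cd22* had 2.91 ± 0.63 in ODC TH1 and -1.27 ± 0.62 in DOHH TH1.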

How the results depend on the processing

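No direction of a called value reversed under any alternative run. The counts of other B cell genes called higher in ODC_KO stayed within 1.5 times under RLE factors, DESeq2, no filter, only the groups compared and the replicate block in TH1, TH2, TH17 and Treg. A mean count of at least 50, which leaves fewer genes tested, gave 16, 17, 12 and 17 higher in ODC TH1, TH2, TH17 and Treg, 5 in DOHH TH1 and 10 in DOHH TH17. It left only 4 members tested in the DOHH table, all of which differed among DOHH_WT and among DOHH_KO subsets. By adjusted p alone, which drops the fold threshold, 9, 10, 8 and 9 were lower in ODC TH1, TH2, TH17 and Treg. In ODC Treg 7 were lower with RLE factors and 7 with DESeq2. In DOHH TH1 DESeq2 called 15 higher and a fit of only the groups compared 4; the cause was not tested. Leaving out each library in turn gave 31 to 35, 29 to 32, 21 to 23 and 29 to 33 higher in ODC TH1, TH2, TH17 and Treg, and 3 to 5, 5 to 6, 3 to 4 and 3 to 7 lower, the 7 being without ODC_KO Treg replicate 1. In the DOHH table it gave 6 to 12, 13 to 16, 14 to 19 and 12 to 17 higher and 7 to 12, 8 to 10, 11 to 13 and 11 to 12 lower, the 7 being without DOHH_KO TH1 replicate 1. It left 9 members that differed among subsets in ODC_WT, and 7 to 8 in DOHH_WT and in DOHH_KO. The median within-group correlation ran from 0.62 to 0.73 (ODC) and from 0.13 to 0.30 (DOHH). Of 700 subset tests of single members under alternatives, 8 lost their call: *Ms4a1* in ODC_WT without a filter, *Pax5* in DOHH_WT without TH2 replicate 1, Treg replicate 1 or Treg replicate 2, and in DOHH_KO *Blnk* with only the groups compared and *Cd22* with only the groups compared, without TH1 replicate 1 or without TH2 replicate 1. In the DOHH series *Ms4a1* and *Pax5* rest on 0 to 5 and 0 to 32 reads a library.

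The replicate block was fitted although numbers only name the libraries. Same-numbered KO and WT libraries of a subset correlated above 0.1 in 7 of 15 ODC and 1 of 12 DOHH pairs, and same-numbered subsets of a genotype in 44 of 45 and 28 of 36; a library was most like its own number in 14 of 15 ODC_KO, 16 of 16 ODC_WT, 9 of 12 DOHH_KO and 12 of 12 DOHH_WT libraries, a hint from the data and not the design. With the replicate block 34, 33, 26 and 32 other B cell genes were called higher in ODC TH1, TH2, TH17 and Treg. All 9 members still differed among ODC_WT subsets, and all 8 tested in the DOHH series among subsets of each DOHH genotype.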
